A study of Rattus norvegicus with 8 samples.

Results

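The genes described here are sensors and receptors with which immune cells read microbes, sugars, antibodies and the surfaces of other cells: Toll-like and NOD-like receptors and their adaptors, lectins, Fc receptors, leukocyte immunoglobulin-like receptors (LILR), Ms4a and Ly6 surface proteins, receptors of natural killer (NK) cells, and the granzymes and perforin of cytotoxic granules. They were chosen by gene symbol alone, as the symbols of a rat exon array that begin with one of a fixed set of stems (such as Tlr, Clec, Fcgr, Lilr, Klr, Ly followed by a digit, or Gzm). This gave 84 of the 7830 symbols on the array, read by 482 probe sets. The stems for Nod, Aim2, Irak, Fcrl, Siglec, Trem, Mrc, Msr1 and Marco matched no symbol, and those genes are not analysed here. A symbol equal to a whole stem was counted, and a rule that asks for a further character would leave 76 genes, without Tlr2, Tlr3, Tlr4, Tlr6, Myd88, Pycard, Prf1 and Nkg7. Symbols are printed as the array's annotation gives them: 78 are current and 6 are older names, among them Fcgr3 (now Fcgr2a), Fcn1 (now Fcna), Clecsf6 (now Clec4a) and Ly49i6 (now Klra1).

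RNA was read on 8 arrays, each from the whole spinal cord of 1 female virgin Lewis rat aged 16 weeks. The 4 rats with experimental autoimmune encephalomyelitis (EAE), numbered 217, 218, 219 and 241, had been injected at the base of the tail with 50 µg of myelin basic protein (MBP) from guinea pig brain in incomplete Freund's adjuvant that carried mycobacteria (M. butyricum, 4.0 mg/ml), and were taken at the peak of disease, labelled day 13. The 4 controls, rats 193, 194, 195 and 196, were healthy littermates that, per the protocol, received neither MBP nor adjuvant. Their labels nonetheless also give 13 days post injection, a value that was not used for them here. Without an adjuvant control the effects of adjuvant and of disease cannot be told apart. The study asked which exons differ in expression between the diseased and the healthy cord. EAE is an inflammation of the central nervous system in which T cells against a myelin protein enter the cord together with monocytes. Pattern receptors such as the Toll-like receptors, NOD-like proteins and C-type lectins start inflammatory signalling when they bind microbial or damage products. Fc receptors couple antibody to myeloid cells, and the lectin-like Klr and Ly49 receptors set the balance of activation and inhibition in NK cells, many of them by binding MHC class I.

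Values are log2 probe set intensities. Each gene was valued, array by array, as the mean over its measured probe sets, those at or above log2 3.98 (the 25th percentile of all values) on at least 4 arrays. Changes are EAE minus control on the log2 scale with the SE from limma, and a gene was called when its adjusted p (Benjamini-Hochberg over 6961 genes) was under 0.05. Array means were nearly equal, and SDs over all probe sets were 2.17 to 2.25 on the EAE arrays and 2.11 to 2.26 on the control arrays, with control 195 the narrowest. Background was read from 1048 genes of olfactory receptors, proteins chiefly of the nose: 95% of them lay under 4.70 in EAE and 4.77 in controls. Where a gene lay at background in controls its fold is a lower bound, written as "at least", and no fold is given where both groups did. Of 11 tested markers of spinal cord neurons and glia none lay at background in either group. In whole tissue, more or fewer cells of a type and more or less RNA per cell cannot be told apart.

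Of the 84 genes, 10 had no measured probe set and 74 were tested. With all probe sets and no filter, so that every gene had a value, 36 of 84 rose (42.9%), beside 11.9% of all genes on the array. None of the 84 fell in that limma fit, beside 15.6% of all genes, and 1 was lower at an unadjusted p under 0.05. The median change was 0.27 over the 84 genes and -0.10 over all genes. After the filter, 36 of the 74 tested genes rose, 1 fell and 37 were not called, where 13.7% of all tested genes rose and 17.4% fell. The 36 include Ly49si1, whose 1 measured probe set passed the filter through the EAE arrays alone and so had to read higher in EAE. Of the 36 rises 31 were by 1 or more on the log2 scale, beside 6.39% of all tested genes. In 35 genes all EAE rats lay above all controls (14.1% of all genes), and in 3 all lay below (33.2% of all genes did not overlap, in either direction). Among the 36 genes that rose, 23 lay at background in controls, and 7 of these lay there in EAE too. The 48 genes at background in both groups include these 7 and the 10 without a measured probe set. Of the 76 genes whose symbol is longer than a stem 66 were tested and 30 rose. Among olfactory receptor genes that passed the filter, 13 of 404 rose and 24 fell.

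**Figure D1:**
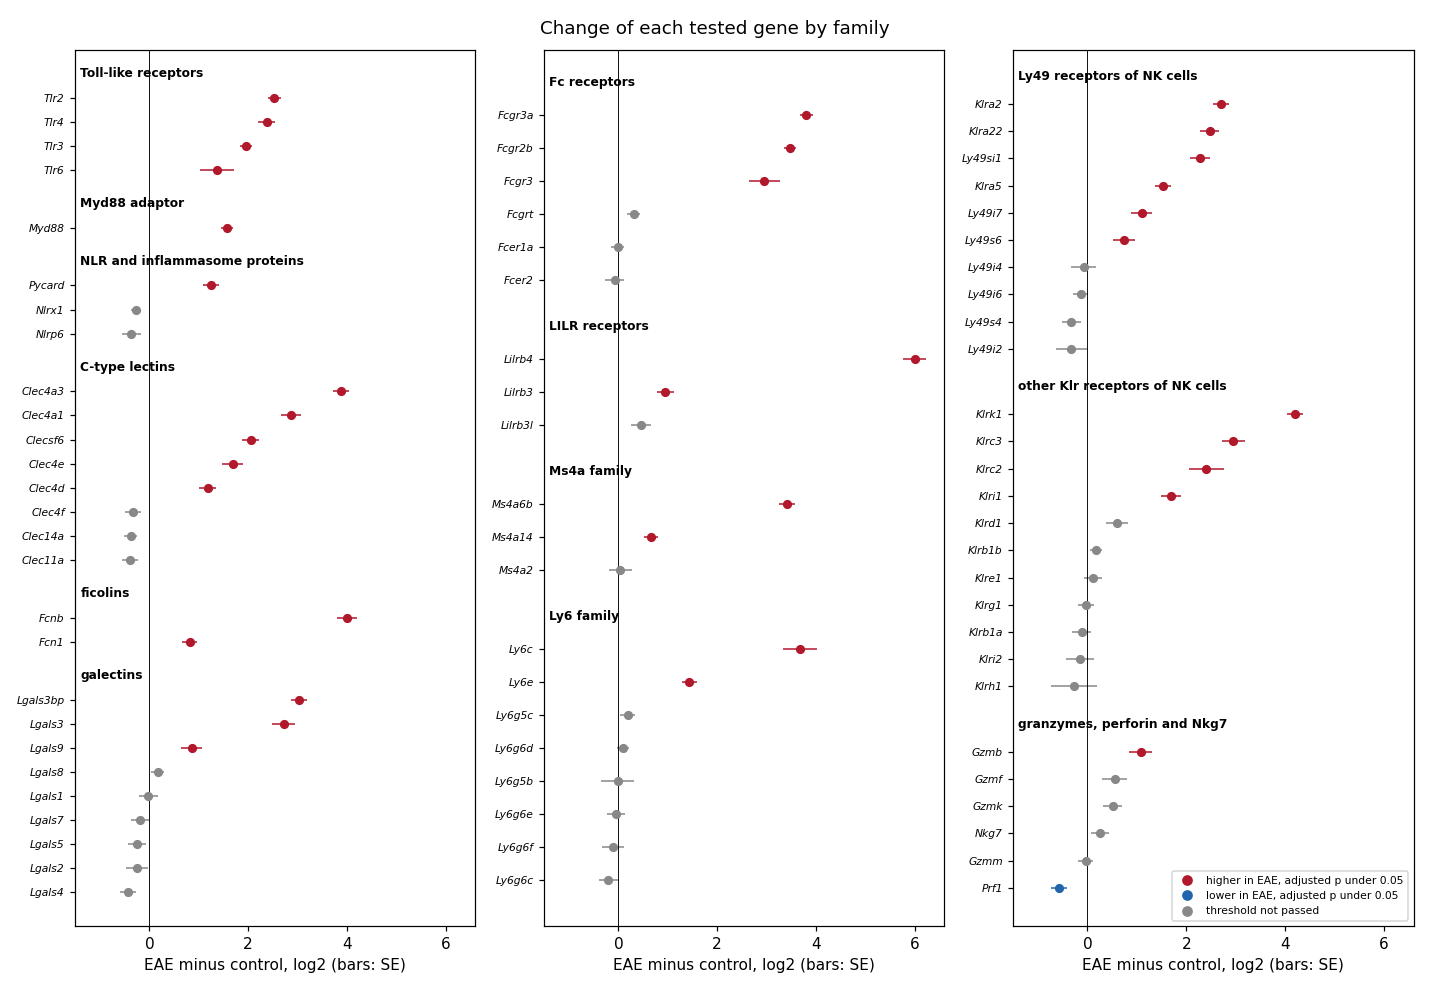
Change of each of the 74 tested genes, EAE minus control on the log2 scale (x axis), with the genes grouped by family down 3 panels. Points are limma estimates and bars their SE (4 rats per group). All 4 Toll-like receptors lie right of zero, the largest change is that of Lilrb4 (5.999), and the single fall is that of Prf1 (-0.57).

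The promoters of the genes were searched for short motifs that are bound by factors of myeloid and interferon responses, with the sequences taken from RefSeq on build GRCr8 (250 bases before and 50 after each gene's start, both strands). For 67 of the 84 genes 69 promoters were found, since Fcgr3 and Ms4a6b have 2 each. The core GAGGAA of the myeloid factor PU.1 stood in 53.6% of the 69 promoters and in 27.6% of all 33469 promoters, in 23 of 34 promoters of genes that rose and in 14 of 35 of the others. The interferon-stimulated response element (ISRE) core, GAAA on both sides of any 2 bases, stood in 15.9% of the 69 and in 3.92% of all promoters, in 8 of the 34 and in 3 of the 35. The interferon gamma activated sequence TTCNNNGAA stood in 11.6% of the 69 and in 8.87% of all, in 3 of the 34 and in 5 of the 35. These are matches of letters only, and related genes share promoter sequence, so the 69 are not independent.

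ISRE cores also stood before the start of Lgals5 and Fcgrt, which were not called, and of Gzma, which was not tested. Lgals5 has the same core as Lgals9, which rose. Each window below is read 5′ to 3′ on the gene's own strand, with the core in capitals. Shown first are ISRE cores before the start of 4 of the 8 risen genes that held one, given as examples. They are Klrk1 (chr4:164778454-164778513, minus strand), Fcgr3a (chr13:85782506-85782565, plus strand), Lgals3bp (chr10:104127864-104127923, minus strand) and Myd88 (chr8:127956231-127956271, minus strand), where the ISRE core overlaps a match to TTCNNNGAA.
Klrk1: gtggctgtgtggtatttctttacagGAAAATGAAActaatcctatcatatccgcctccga
Fcgr3a: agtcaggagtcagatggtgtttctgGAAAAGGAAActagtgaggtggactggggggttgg
Lgals3bp: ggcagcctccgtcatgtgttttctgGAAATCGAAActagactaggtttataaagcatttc
Myd88: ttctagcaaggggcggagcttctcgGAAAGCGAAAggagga

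PU.1 cores are shown for Lilrb4, the gene with the largest rise, and for 5 Ly49 genes that share the sequence around the core but not the call. The core reads GAGGAA in Lilrb4 (chr1:78853405-78853460, minus strand) and its reverse complement in the Ly49 genes. Klra2 (chr4:166716850-166716905), Klra22 (chr4:165743070-165743125) and Ly49si1 (chr4:165286215-165286270) rose, and Ly49i6 (chr4:166313698-166313753) and Ly49i2 (chr4:166180722-166180777) were not called. All 5 lie on the minus strand of chromosome 4. The rise of Ly49si1 rests on a probe set that passed the filter through the EAE arrays alone.
Lilrb4: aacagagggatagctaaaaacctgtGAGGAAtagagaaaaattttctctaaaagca
Klra2: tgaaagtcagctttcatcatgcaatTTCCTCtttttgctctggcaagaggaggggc
Klra22: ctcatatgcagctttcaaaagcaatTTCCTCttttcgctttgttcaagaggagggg
Ly49si1: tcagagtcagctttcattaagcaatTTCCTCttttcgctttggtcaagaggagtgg
Ly49i6: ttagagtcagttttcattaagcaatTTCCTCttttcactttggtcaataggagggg
Ly49i2: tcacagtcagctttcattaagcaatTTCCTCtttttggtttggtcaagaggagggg
The run gcaatTTCCTCtttt, the longest that these 5 windows have in common, stood in 6 of the 33469 promoters, all 6 of them among the 14 Ly49 promoters searched. The sixth is that of Ly49i5, which was not tested.

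All 4 Toll-like receptors rose. Tlr2, the receptor for bacterial lipoproteins, had log2 values of 5.96, 6.07, 6.01 and 6.05 in EAE rats 217, 218, 219 and 241, against 3.12, 3.71, 3.60 and 3.53 in control rats 193, 194, 195 and 196. The groups lay far apart, with controls at background, and Tlr2 was at least 2.31-fold higher in EAE (change 2.53 ± 0.13, adjusted p = 3.8e-07 in limma). Its 2 probe sets differed widely, with rises of 0.97 and 4.09. Of the 2, 1 passed the filter through the EAE arrays alone and so had to read higher in EAE. Tlr4, which senses lipopolysaccharide, was 5.18-fold higher (7.67 ± 0.12 in EAE and 5.30 ± 0.38 in controls, SD, n = 4 each), and each of its 5 probe sets rose. Tlr3, the endosomal receptor for double-stranded RNA, was 3.88-fold higher (8.12 ± 0.13 in EAE and 6.17 ± 0.21 in controls), with all 10 probe sets risen. Tlr6, the partner of Tlr2, changed by 1.37 ± 0.35 (adjusted p = 0.0143), and its groups overlapped, since control 195 at 5.98 lay above EAE 241 at 5.68. Tlr6 lost its call without variance moderation (adjusted p = 0.0638).

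Myd88, the adaptor that carries the signal of most Toll-like receptors and of the interleukin-1 receptors, rose with them. It had 7.21, 7.05, 7.07 and 7.32 in the EAE rats, against 5.66, 5.67, 5.36 and 5.68 in the controls, and the groups did not overlap. Myd88 was 2.97-fold higher (change 1.57 ± 0.11, adjusted p = 4.64e-06).

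Of the 3 NOD-like receptor and inflammasome genes only Pycard passed the test. Pycard, also known as ASC, joins inflammasome sensors to caspase-1. It read 6.08, 6.07, 6.01 and 5.82 in the EAE rats, against 4.33, 4.78, 5.18 and 4.69 in the controls, and was at least 2.24-fold higher (change 1.25 ± 0.17, adjusted p = 0.000373 in limma). All 3 of its probe sets rose, 1 of which passed the filter through the EAE arrays alone. Nlrx1, a mitochondrial NOD-like protein, differed by -0.27 ± 0.11 (adjusted p = 0.0847) although no EAE rat reached a control, and Nlrp6 differed by -0.37 ± 0.19 at background in both groups (adjusted p = 0.177). Nlrx1 passed with array quality weights (0.0298) and after median centring (0.045).

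Among 10 C-type lectins the 5 tested genes of the Clec4a, Clec4d and Clec4e cluster rose, and the 3 other tested genes did not pass. Clec4a3, a relative of the dendritic cell immunoreceptor Clec4a, had 8.71, 9.34, 8.85 and 9.11 in the EAE rats, against 5.03, 5.07, 5.43 and 4.93 in the controls. That is 14.8-fold (change 3.89 ± 0.16, adjusted p = 6.86e-08 in limma). All 7 of its probe sets rose, 1 of which passed the filter through the EAE arrays alone. Clec4a1 had 7.07, 7.44, 6.81 and 7.73 in EAE, against 4.23, 4.36, 4.68 and 4.32 in controls, at least 5.45-fold higher. Both genes lay above every control in each EAE rat. Clecsf6, the annotation's name for Clec4a itself, an inhibitory receptor, had 6.19, 6.15, 5.65 and 6.20 in EAE, against 4.11, 3.84, 4.32 and 3.72 in controls (at least 2.35-fold).

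Clec4e and Clec4d, known as Mincle and MCL, bind the mycobacterial glycolipid trehalose dimycolate in mouse and human. Clec4e had 6.14, 6.34, 5.57 and 6.18 in the EAE rats, against 3.94, 4.43, 4.84 and 4.29 in the controls, at least 2.13-fold higher (adjusted p = 0.000254 in limma). Clec4d had 4.99, 4.86, 4.36 and 5.04 in EAE, against 3.27, 3.74, 3.80 and 3.74 in controls. Its groups did not overlap and it passed the test (change 1.18 ± 0.18), but over all its probe sets both groups lay at background. Of the 3 measured probe sets of Clec4d, 1 passed the filter through the EAE arrays alone. With no filter Clec4d changed by 0.92. Clec11a, Clec14a, an endothelial lectin, and Clec4f, a receptor of liver macrophages, differed by -0.39 to -0.34 at background in both groups, with adjusted p of 0.052 or more. Clec14a passed in 5 of the alternatives. Clec4f passed as lower with array quality weights (adjusted p = 0.0251 in limma) and without control 193 (0.0276). Clec11a passed as lower with array quality weights (0.0365), and 1 of its 4 measured probe sets fell. Clec2d and Clec4b2 had no measured probe set.

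Both ficolins, secreted lectins that start the lectin pathway of complement, rose. Fcnb had 9.16, 8.78, 8.71 and 8.65 in the EAE rats, against 4.24, 5.18, 5.07 and 4.78 in the controls. It was 16.1-fold higher (change 4.01 ± 0.20, adjusted p = 3.18e-07), and each of its 11 probe sets rose. Fcn1 (ficolin A under its current name) had 5.999, 6.27, 5.89 and 6.04 in EAE, against 5.13, 5.18, 5.63 and 5.02 in controls, at least 1.33-fold higher (change 0.81 ± 0.15). Only 3 of its 6 measured probe sets rose, and the others ran down to -0.62.

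Of the 9 Lgals genes, which encode galectins except for Lgals3bp, 3 rose. Lgals3bp, a secreted protein that binds galectin-3, had 8.57, 7.82, 8.49 and 8.06 in the EAE rats, against 5.31, 5.17, 5.10 and 5.24 in the controls, 8.18-fold higher (change 3.03 ± 0.17, adjusted p = 5.36e-07). Lgals3, galectin-3 itself, a product of activated macrophages and microglia, had 8.47, 9.42, 8.51 and 9.02 in EAE, against 6.32, 6.44, 6.01 and 5.79 in controls, 6.57-fold higher (change 2.72 ± 0.23). Both genes lay above every control in each of the EAE rats. Lgals9 changed by 0.85 ± 0.22 (adjusted p = 0.0138) and lost its call without variance moderation (0.0537). Lgals1 read 6.41 ± 0.13 in EAE and 6.43 ± 0.43 in controls, a difference of -0.02 ± 0.19, and Lgals8 9.30 ± 0.12 in EAE and 9.13 ± 0.23 in controls (SD, n = 4 each). The remaining galectins differed by -0.43 (Lgals4) to -0.19 and did not pass. Lgals4 passed as lower with array quality weights (adjusted p = 0.0339 in limma) and without control 193 (0.0174). Lgals2 passed as lower without control 193 (0.042). In Lgals4 1 of 5 measured probe sets fell.

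The 3 Fcgr genes, receptors for IgG on immune cells, rose, and the IgE receptor genes did not pass. Fcgr3a, an activating receptor, had 7.94, 8.00, 7.96 and 8.04 in the EAE rats, against 4.16, 4.37, 4.38 and 3.81 in the controls. It was at least 8.98-fold higher (change 3.80 ± 0.13, adjusted p = 2.57e-08), and its EAE values had an SD of 0.04. Fcgr2b, the inhibitory IgG receptor, had 8.87, 8.94, 8.79 and 9.04 in EAE, against 5.50, 5.64, 5.19 and 5.44 in controls, 11.1-fold higher (change 3.47 ± 0.12). Fcgr3, read by 1 probe set, had 6.97, 7.22, 6.10 and 7.78 in EAE, against 3.71, 3.91, 4.48 and 4.17 in controls, at least 3.28-fold higher. Activating and inhibitory receptors thus both rose, without overlap between the groups.

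Fcgrt, the neonatal Fc receptor that recycles IgG, had 5.28, 5.34, 4.93 and 5.36 in the EAE rats, against 4.86, 4.84, 5.12 and 4.84 in the controls, where control 195 lay among the EAE values. It was not called (0.31 ± 0.13, adjusted p = 0.0933), yet 1 of its 6 measured probe sets rose by 1.99. With the filter set at the 50th percentile Fcgrt changed by 1.15 and passed (adjusted p = 0.00287). Fcer1a, the binding chain of the high-affinity IgE receptor, differed by -0.02 ± 0.14 and Fcer2, the low-affinity one, by -0.07 ± 0.19, both at background in both groups.

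Lilrb4 had the largest change of all 74 genes. It is an inhibitory receptor of myeloid cells in human and mouse. Its values were 10.004, 9.32, 9.03 and 9.87 in the EAE rats, against 3.20, 3.88, 3.71 and 3.44 in the controls, whose level was at background. Lilrb4 was at least 26.7-fold higher in EAE (change 5.999 ± 0.23, adjusted p = 3.8e-08 in limma), at 9.56 ± 0.46 in EAE and 3.56 ± 0.30 in controls (SD, n = 4 each). All 10 of its probe sets rose, by 4.93 to 6.998. Of these, 4 passed the filter through the EAE arrays alone and so had to read higher in EAE. Lilrb3, a second inhibitory receptor, had 6.13, 5.62, 5.51 and 6.03 in EAE, against 4.55, 5.07, 5.04 and 4.81 in controls, 1.93-fold higher (change 0.95 ± 0.17), with 3 of 7 probe sets risen. Lilrb3l had 5.79, 5.85, 5.52 and 5.59 in EAE, against 5.31, 5.84, 4.88 and 4.87 in controls, and was not called (0.46 ± 0.21, adjusted p = 0.118). With the median of its probe sets Lilrb3l changed by 1.32 and passed (0.0244), and without control 194, whose value lies among the EAE rats, by 0.66 (0.013).

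**Figure D2:**
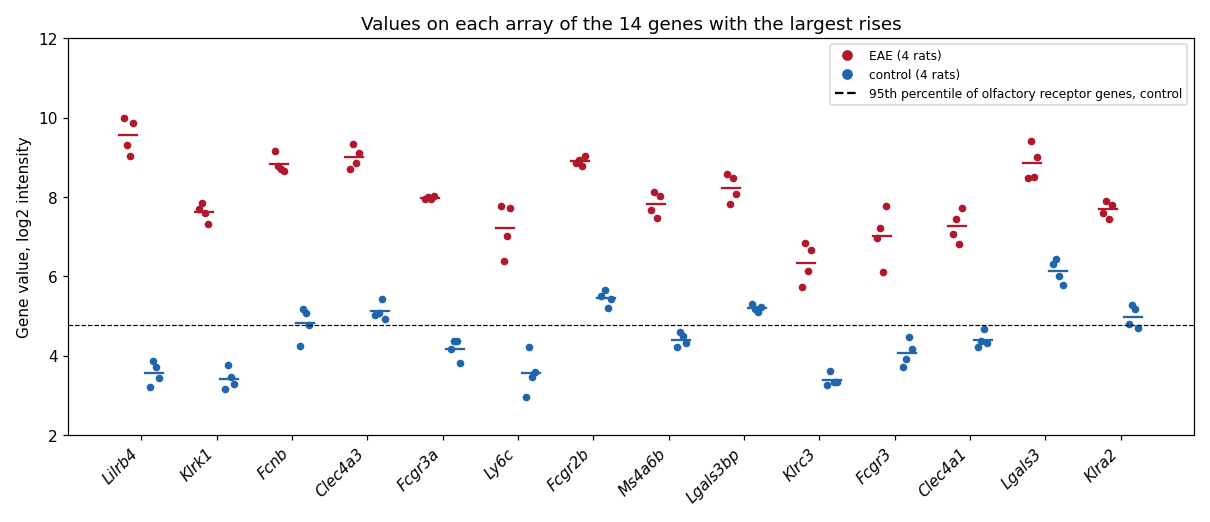
Gene values on each array (log2 intensity, y axis) for the 14 genes with the largest rises, EAE left of control for each gene. Points are single rats, bars group means of 4 rats, and the dashed line is the 95th percentile of olfactory receptor genes in controls (4.77), taken without the filter on dim probe sets. In all 14 genes every EAE rat lies above every control, and 8 of the 14 control means lie under the line.

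Of the Ms4a genes, which encode membrane proteins of leukocytes, Ms4a6b rose most. It had 7.67, 8.13, 7.48 and 8.02 in the EAE rats, against 4.21, 4.61, 4.49 and 4.31 in the controls, at least 8.04-fold higher (change 3.42 ± 0.16, adjusted p = 1.72e-07). Ms4a14 changed by 0.65 ± 0.14 (adjusted p = 0.00664) at background in both groups, and it lost its call with a filter on the mean over all arrays (0.0892) and after median centring (0.0563). Ms4a2, the beta chain of the high-affinity IgE receptor, differed by 0.04 ± 0.23 and, like Fcer1a, lay at background.

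Among 9 Ly6 genes, small proteins anchored to the cell surface, Ly6c and Ly6e rose. Ly6c, which marks monocytes and endothelium in mouse, was read by 1 of its 2 probe sets, with 7.76, 6.40, 7.03 and 7.73 in the EAE rats, against 2.95, 4.22, 3.47 and 3.58 in the controls. It was at least 1.85-fold higher (change 3.68 ± 0.34, adjusted p = 2.54e-05), the bound being set by both probe sets together. Ly6e, an interferon-inducible member, had 7.43, 6.92, 7.53 and 7.29 in EAE, against 6.16, 5.82, 5.76 and 5.69 in controls, 2.71-fold higher (change 1.44 ± 0.16), with 7 of 8 probe sets risen. The 6 Ly6g5 and Ly6g6 genes, which follow each other on chromosome 20, differed by -0.20 to 0.19. None was called in limma, and none had an unadjusted p under 0.05. Ly6b had no measured probe set.

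The Ly49 receptors are lectin-like receptors for MHC class I of rodents, and 6 of the 10 tested rose, with 5 of 15 rising when no filter was used. The 6 include Ly49si1, measured only through the EAE arrays. Klra2 had 7.60, 7.91, 7.46 and 7.80 in the EAE rats, against 4.80, 5.27, 5.17 and 4.70 in the controls. It was 6.53-fold higher (change 2.71 ± 0.16, adjusted p = 8.94e-07), all 10 measured probe sets rose, and it was the single Ly49 gene with controls above background. Klra22, on 2 probe sets, changed by 2.47 ± 0.19 and was at least 1.20-fold higher in EAE over all its probe sets. Of the 2, 1 passed the filter through the EAE arrays alone and so had to read higher in EAE. With no filter Klra22 changed by 1.75 (adjusted p = 4.3e-05 in limma).

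The 4 other Ly49 genes that passed lay at background in both groups. Klra5 had 5.17, 5.32, 5.10 and 5.04 in the EAE rats, against 3.66, 3.64, 4.02 and 3.22 in the controls, and Ly49i7 had 5.27, 5.61, 5.62 and 5.11 in EAE, against 3.98, 4.15, 4.94 and 4.13 in controls. Ly49si1 changed by 2.28 ± 0.21 on 1 probe set that passed the filter through the EAE arrays alone, so its change is given as a description only, and Ly49s6 by 0.74 ± 0.22. Of the 3 measured probe sets of Klra5, 1 passed the filter through the EAE arrays alone. With no filter Klra5 rose by 1.15, and Ly49i7 did not pass (adjusted p = 0.0533 in limma). Ly49s6 did not pass after median centring, without variance moderation or without EAE 217, EAE 219 or control 196 (adjusted p = 0.0568 to 0.0863). Ly49i6, Ly49i4, Ly49s4 and Ly49i2 differed by -0.33 to -0.08 and were not called. Ly49i6 had 5.78, 5.55, 5.70 and 5.35 in EAE, against 5.61, 5.82, 6.01 and 5.48 in controls, and 1 of its 4 probe sets fell by 1.14. Its gene value fell by 0.59 with the filter at the 50th percentile and passed there (adjusted p = 0.0196).

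Of the 11 other Klr genes 4 rose, and they follow each other on chromosome 4. Klrk1, the activating receptor NKG2D found on NK cells and CD8 T cells, had 7.71, 7.86, 7.61 and 7.31 in the EAE rats, against 3.16, 3.76, 3.45 and 3.29 in the controls. It was at least 4.67-fold higher (change 4.21 ± 0.16, adjusted p = 3.77e-08 in limma). All 7 measured probe sets rose, but 3 of them passed the filter through the EAE arrays alone. Klrc3 had 5.72, 6.85, 6.14 and 6.67 in EAE, against 3.27, 3.62, 3.35 and 3.33 in controls, at least 2.89-fold higher (change 2.96 ± 0.23). Klrc2 and Klrc3 are members of the NKG2 group, which pair with CD94. Klrc2 changed by 2.40 ± 0.35 and was at least 1.04-fold higher over all its probe sets. In Klrc2 and in Klrc3, 1 of 2 measured probe sets passed the filter through the EAE arrays alone. With no filter Klrc2 changed by 1.51 and Klrc3 by 2.96. Klri1 changed by 1.69 ± 0.20 at background in both groups.

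The partner CD94, Klrd1, was read by 1 measured probe set and differed by 0.59 ± 0.22 (adjusted p = 0.0669), at background in both groups over all probe sets. It passed with array quality weights (adjusted p = 0.0461) and without EAE 241 (0.0319). Klrb1b had 4.61, 4.96, 4.73 and 4.92 in the EAE rats, against 4.47, 4.81, 4.63 and 4.61 in the controls, values that overlap, and was not called (0.18 ± 0.12). Klrb1a (-0.11 ± 0.19), the inhibitory receptor Klrg1 (-0.03 ± 0.16), Klre1, Klri2 and Klrh1 did not pass either, all at background in both groups.

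Of 6 tested cytotoxic granule genes 1 rose and 1 fell, a share near that of all tested genes, of which 31.1% were called. Gzmb, granzyme B, had 6.93, 6.98, 7.22 and 6.63 in the EAE rats, against 5.31, 6.37, 6.16 and 5.60 in the controls, 2.11-fold higher (change 1.08 ± 0.23, adjusted p = 0.00577). Its 2 measured probe sets disagreed, the dimmer one with a change of 2.01 and the brighter one with 0.15. Gzmb lost its call at the 50th percentile filter, which leaves the brighter one (adjusted p = 0.545). Prf1, perforin, had 4.61, 4.54, 4.61 and 4.68 in EAE, against 4.81, 5.003, 5.62 and 5.28 in controls. It fell by 0.57 ± 0.16 (adjusted p = 0.0235) on 1 of 5 probe sets, with both groups at background, and all its probe sets together gave a change of 0.10 (0.584). Without EAE 217, 218 or 219 or control 196 the adjusted p of Prf1 was 0.051 to 0.0653. Gzmk (0.51 ± 0.19, adjusted p = 0.0714), Gzmf, Gzmm and Nkg7 were not called and lay at background in both groups. Gzmk passed when all its probe sets were used (0.0237). Gzma and Gzmc had no measured probe set.

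The order of the genes along the rat chromosomes was read from the current RefSeq gene table. Chromosome 4 holds 34 of the 84 genes, of which 27 were tested and 15 rose, with Ly49si1, measured only through the EAE arrays, among the 15. From Clec4a1 to Clec4e 6 genes of the set follow each other, and the 5 tested rose by 1.18 to 3.89. From Klrk1 through Klrc3 and Klrc2 to Klri1 4 of 4 rose, by 1.69 to 4.21, while Klre1 and Klrd1 before them and Klri2 and Klrh1 after them were not called. The ends of this stretch were drawn where the calls change, so its 4 of 4 only describes the order. Among the tested Ly49 genes, Klra22 and Ly49s6, which rose, are followed along the chromosome by 4 that were not called and then by 3 that rose (Klra5, Ly49i7 and Klra2). Ly49si1, which comes before them, changed by 1.10 over all its probe sets with no filter (adjusted p = 9.19e-05 in limma). On chromosome 13 Fcgr2b, Fcgr3a and Fcgr3 rose by 2.95 to 3.80. Neighbours of one family are similar in sequence, and whether probe sets of one gene also read its relatives was not tested, here or for the LILR genes.

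**Figure D3:**
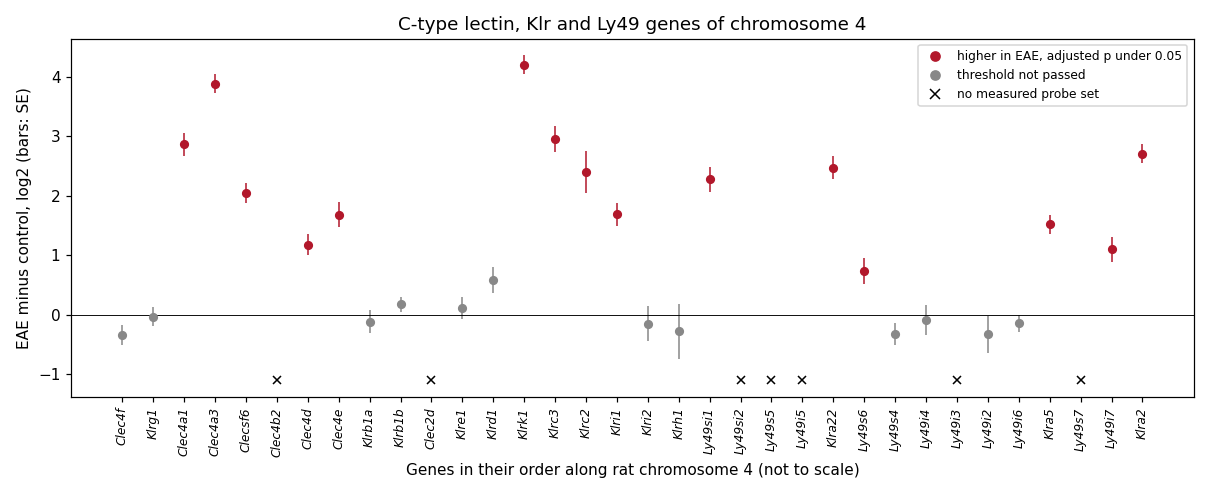
Change of the C-type lectin, Klr and Ly49 genes of chromosome 4, EAE minus control on the log2 scale (y axis), in their order along the chromosome without distances (x axis). Points are limma estimates with SE bars (4 rats per group) and crosses are genes without a measured probe set. Clec4a1 to Clec4e and Klrk1 to Klri1 form runs of risen genes, with changes up to 4.21.

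Since the arrays read exons, the probe sets of each gene were compared as well. Of the 288 measured probe sets of the 84 genes 155 rose and 3 fell, where 10.1% of 58784 probe sets rose and 10.1% fell. Of the 155, 26 had passed the filter through the EAE arrays alone and so had to read higher in EAE. Among them were 4 of Lilrb4, 3 of Klrk1 and 2 each of Clec4a1, Clecsf6, Fcgr3a and Ms4a14. The rest were 1 each of Tlr2, Pycard, Clec4a3, Clec4d, Clec4e, Fcgr2b, Klra22, Klra5, Ly49si1, Klrc2 and Klrc3. In turn, 1 of the 288 had passed through the control arrays alone. Without the probe sets that passed through 1 group alone, 129 of 261 rose and 2 fell. With no filter 168 of 482 rose and 5 fell, beside 7.86% and 7.59% of all probe sets. Unequal change of the probe sets within a gene was tested by the F test of diffSplice (limma) wherever 3 or more had been measured, and was called in 23 of 43 genes (53.5%), beside 26.6% of 5563 genes on the array. In simulated data this F test made more false calls than its threshold allows. At an adjusted p under 0.001 it called 17 of the 43 genes, beside 9.35% of all. In none of the 23 did probe sets pass in both directions, and in 10 every measured probe set rose. In 18 of the 23 the probe set with the smallest change was dimmer in EAE than the one with the largest. A change is EAE minus control, so a probe set with a large rise tends to read bright in EAE. That count therefore cannot show whether dim probe sets changed less. The part of brightness in these calls was not tested.

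The widest spread was in Fcnb, whose 11 probe sets rose by 1.32 to 7.60 (adjusted p = 1.1e-26 in the F test). Its smallest rise was in a probe set that read 8.21 in EAE and 6.89 in controls, and its largest in one that read 11.18 in EAE and 3.58 in controls. The 7 probe sets of Fcgr3a, 2 of which passed the filter through the EAE arrays alone, rose by 1.57 to 5.24, and the 4 of Ms4a6b by 0.87 to 5.07. In Lilrb3 the probe sets ran from -0.87 to 3.50, and in Fcn1 from -0.62 in the brightest one in EAE (8.33 in EAE and 8.96 in controls) to 2.97.

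In 4 genes probe sets changed unequally while the gene was not called: Fcgrt, Klrb1b, Lilrb3l and Ly49i6. Of these Fcgrt alone passed at 0.001 (adjusted p = 5.6e-05 in the F test), and Lilrb3l did not pass in the Simes test (adjusted p = 0.063). In Fcgrt the probe set that rose read 6.33 in EAE and 4.34 in controls, and the 5 others lay between -0.59 and 0.31. In Ly49i6 the one that fell read 7.78 in EAE and 8.92 in controls and was its brightest. In Klrb1b 1 of 3 probe sets rose (0.96), and in Lilrb3l 2 of 7 (1.48 and 1.58).

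**Figure D4:**
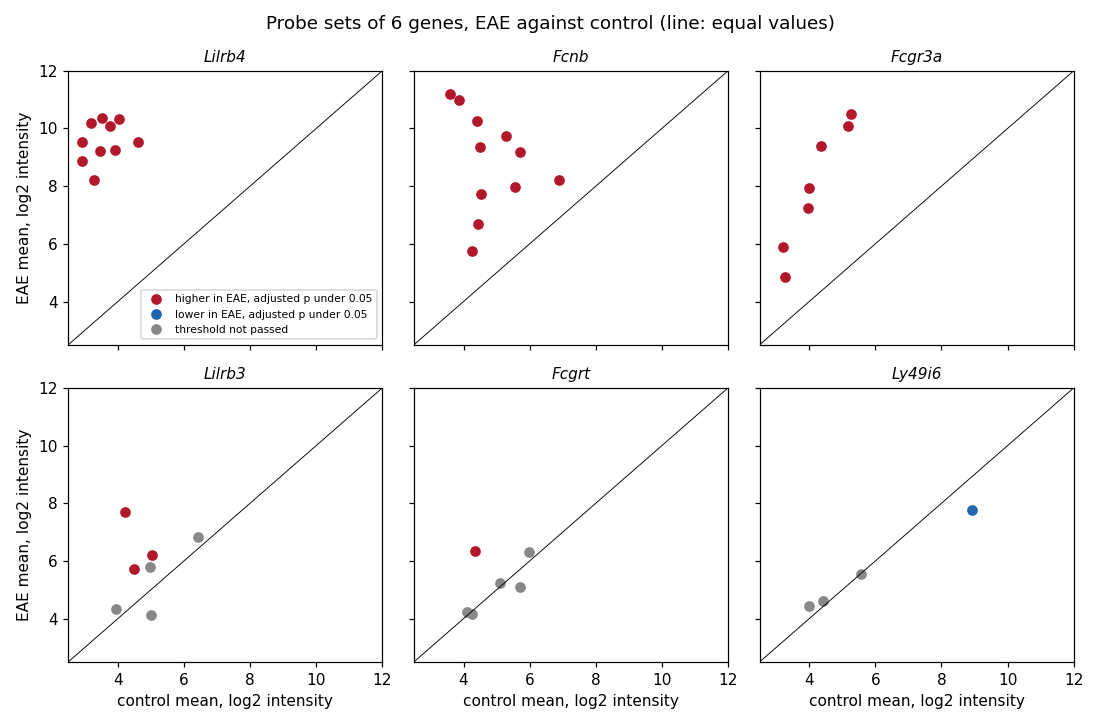
Measured probe sets of 6 genes, the mean of 4 EAE rats (y axis, log2 intensity) against the mean of 4 controls (x axis, log2 intensity), with a line at equal values. All probe sets of Lilrb4, Fcnb and Fcgr3a lie above the line, where 4 of Lilrb4 and 2 of Fcgr3a had to lie, having passed the filter through the EAE arrays alone. Lilrb3 and Fcgrt have probe sets on both sides of it, and the single called fall is in Ly49i6 (7.78 in EAE and 8.92 in controls).

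The partners through which these receptors signal rose in part. Over all tested genes 13.7% rose and 17.4% fell. Of 6 measured partners of Toll-like and NOD-like receptors 4 rose and none fell (median change 0.61, against -0.11 over all tested genes), with Cd14, the lipopolysaccharide co-receptor (2.19), Lbp, which delivers lipopolysaccharide to it (1.69), and the kinase Ikbkb (0.66) in front. Of 8 inflammasome effectors and cytosolic sensors 7 rose and none fell (median 1.84), and the inflammatory caspase Casp4 (2.87), Casp8 (2.69) and Casp1, which Pycard recruits (2.63), led them. Of 20 partners of activating (ITAM) and inhibitory (ITIM) receptors 15 rose and none fell (median 1.32). In this group Hcst, the adaptor of Klrk1, rose by 3.30, and the kinase Lyn and the adaptor Lcp2 by 3.22 each. Controls lay at background for Cd14, Lbp, Casp8, Hcst and Lyn, so only a lower bound of their rises can be read. No gene of the 3 lists had a lower value in EAE at an unadjusted p under 0.05.

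Markers of the cells that could carry these receptors moved unequally, where 13.7% of all tested genes rose and 17.4% fell. All 10 tested markers of monocytes and macrophages rose (median change 3.93), among them Cybb (5.50), Ccr2 (4.90) and Lyz2 (4.15). Controls lay at background for Cybb and Ccr2, which were at least 35.3-fold and at least 15.3-fold higher in EAE. The mean of the 10 per array, over all probe sets, was 8.80 to 9.12 in EAE and 5.18 to 5.44 in controls. All 5 microglial markers rose, led by Cx3cr1 (2.49), with means of 7.59 to 7.78 in EAE and 5.99 to 6.38 in controls. Of 9 T cell markers 8 rose, with means of 5.47 to 5.60 in EAE and 3.83 to 4.27 in controls. Cd4 rose by 3.56, Cd8a by 2.29 and Cd2 by 2.03. Controls lay at background for Cd8a and Cd2 but not for Cd4, so the sizes of these rises cannot be ranked.

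Of 10 NK cell markers, 7 of which belong to the 84 genes, 3 rose (Klrk1, Gzmb and Ncr3 at 0.66) and Prf1 fell. For these short lists the shares over all tested genes are 13.7% risen and 17.4% fallen. Ncr3, Klrb1a, Klrd1, Klrg1, Prf1, Nkg7 and Xcl1 lay at background in EAE, and the mean of the list was 4.41 to 4.64 in EAE and 3.75 to 4.16 in controls. None of 5 neutrophil markers was called in limma (1 lower at an unadjusted p under 0.05), 4 of them at background in EAE, with means of 3.77 to 4.05 in EAE and 3.66 to 4.08 in controls. None of 7 tested mast cell and basophil markers was called either, 0 at an unadjusted p under 0.05, and 7 of the 8 on the array lay at background in EAE. Of 4 dendritic cell markers Irf8 rose (2.43) with controls at background, and of 2 B cell markers Cd79b rose (0.36) at background in both groups. Of the 11 cord markers 1 rose and 4 fell. The part of each cell type in the changes of the 84 genes was not tested.

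The EAE rats were close in their mean over these genes but not in each gene. Over the 31 genes that rose by 1 or more the mean level was 7.04 in EAE 217, 7.16 in EAE 218, 6.90 in EAE 219 and 7.10 in EAE 241. The range between the 4 rats had a median of 0.63 over the 31 genes and exceeded 1 in 4 of them: Fcgr3 (1.67), Klrc2 (1.44), Ly6c (1.37) and Klrc3 (1.13). EAE 218 was highest in 11 of the 31 and EAE 219 lowest in 11, and each of the 4 rats was highest in at least 5 genes.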

How the data were processed

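Spinal cord RNA of 4 EAE and 4 control rats was amplified, biotinylated and hybridised to Affymetrix rat exon arrays, per the labels' protocols. The deposited values are log2 probe set intensities. Per the submitters' processing notes, Partek, RMA and Affymetrix Expression Console were used. Their roles and versions are not stated, and no genome build is named in the sources used here. Of 80939 probe sets 76186 had 1 symbol in the platform annotation, 550 several and 4203 none, and 58784 with 1 symbol were measured. Gene values (mean of measured probe sets), probe sets and exon usage (diffSplice) were compared, EAE minus control, 2-sided, with limma 3.58.1 in R 4.3.3, and p-values were adjusted over all features. Background used all probe sets of 1048 olfactory receptor genes and of the genes set against it.

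Each rat is 1 array. No litter, batch or slide is given per animal, and the number of arrays limits the precision. Gene families, lists, alternatives and tests were chosen with earlier results of these data known. Values on every array are given for the 14 largest rises, for falls past the threshold (up to 6), for the largest change in each family and for genes called in exon usage. At most 3 genes were named per pathway or marker list. The order along chromosomes was not among the planned comparisons, and the stretch from Klrk1 to Klri1 was drawn from the calls. Counts at an unadjusted p, the stricter exon usage threshold, the counts without probe sets that passed through 1 group alone and the promoter run shared by Ly49 genes were added after the values were seen. The gene, probe set and exon usage tests were tested on simulated data, where the exon usage test made clearly more false calls than its threshold allows. Figures used matplotlib 3.10.9 with pandas 2.3.3 and numpy 2.4.6 in Python 3.11.15.

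A symbol of the set, Lilrb3l, is an older name of 2 current genes, so no promoter was searched for it. Alternatives changed the filter, the normalization, the variance model, the gene summary, a minimum change and the arrays used.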

Additional observations from a re-analysis of the deposited data

Results flagged for a closer look

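Values that stood apart within a group of 4 arrays were sought in the 74 tested genes by Dixon's test, which chance passes in about 1 of 20 groups. Of 148 groups 7 held such a value, 6 of them among controls, and 4 of the 7 were from control 195, the array with the narrowest spread (SD 2.11) and the highest olfactory receptor median (3.77). Control 195 stood apart in Fcgrt (5.12, the others 4.84 to 4.86), in Lgals8 (8.80, the others 9.20 to 9.28), in Ly49s4 (4.90, the others 4.22 to 4.32) and in Myd88 (5.36, the others 5.66 to 5.68). Control 193 stood apart in Clec4d (3.27, the others 3.74 to 3.80) and in Klrd1 (4.14, the others 4.74 to 4.83). EAE 219 stood apart in Clecsf6 (5.65, the others 6.15 to 6.20).

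Probe sets annotated to several genes of the set were in no comparison. All 3 shared by Fcgr3 and Fcgr2b were higher in each EAE rat than in each control: 6.59, 8.38 and 9.21 in EAE, against 3.38, 5.09 and 6.09 in controls (means of 4 rats). The same held for 2 of 5 shared by Klrd1 and Klre1, with 5.06 and 5.70 in EAE, against 4.31 and 3.26 in controls. It held for 0 of 2 shared by Ly49s5 and Ly49i5.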

How the results depend on the processing

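Leaving out limma's treat with a minimum change of 1, 30 of the 37 called genes kept call and direction wherever they were tested. With treat 22 kept them too. A gene that an alternative filter removed was not counted as having lost its call. The filter at the 50th percentile left 51 genes of the set to test, and that on the mean over all arrays left 72. The count of risen genes of the set was 36 as reported, 33 to 38 in the alternatives other than treat (35 to 38 leaving out 1 array at a time) and 22 with treat. The 4 differences that turned direction were those of Gzmf (-0.066) and Prf1 (0.10) with no filter and of Ly49i6 with no filter (0.0090) and with the median of probe sets (0.085), and Prf1 alone of these was called as reported. The count of fallen genes of the set was 1 as reported, 0 with no filter, without variance moderation, with treat and without control 195 and EAE 218 (a run chosen after seeing the data), 2 after quantile normalization, 3 after median centring, 6 with array quality weights and 0 to 5 leaving out 1 array, with 0 without EAE 217, EAE 218 or control 196 and 5 without control 193. Changed genes of the set numbered 35 to 41 leaving out 1 array and 22 with treat. Over all genes 2164 changed as reported, 231 with treat and 1674 to 2340 leaving out 1 array. Of these 951 rose (228 with treat, 813 to 1029) and 1213 fell (3 with treat, 1873 with array quality weights, 792 with the median of probe sets, 861 to 1364). Leaving out 1 array, 7990 to 12654 probe sets in all and 145 to 164 of the set changed. Exon usage was called in 861 to 2101 genes, with 915 without EAE 217, 957 without EAE 241 and 861 without control 196, beside 1482 as reported and 520 at an adjusted p under 0.001 (chosen after seeing the data), and in 19 to 24 genes of the set beside 23. Median centring moved the median change of all genes to -0.17 and quantile normalization to -0.12, beside -0.11. Of the genes not called 12 passed in at least 1 alternative, and causes were not tested. Where signal is near background, as in both groups for 48 of the 84 genes, a change was not detectable or only its sign could be read. No paired analysis was possible because the groups share no replicate numbers.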
